A study of Mus musculus with 6 samples.

Results

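Collagens are the main structural proteins of the skin matrix, and 44 of the 35275 genes listed in the deposited tables encode a collagen chain by name (Col, a type number, a, a chain number, with nothing after). Col4a3bp, which shares only the prefix and encodes a ceramide transporter, was left out. The chains were placed in 9 classes: 11 fibrillar, 6 basement membrane, 1 anchoring fibril, 9 FACIT (fibril-associated with interrupted helices), 4 transmembrane, 6 beaded filament, 3 network-forming short chain, 2 multiplexin and 2 other chains.

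The study measured RNA in the epithelial region of back skin from C57BL/6 mice, in 3 libraries from IL-33 KO mice, which lack the alarmin cytokine IL-33, and in 3 from WT mice. Every library came from back skin that had received 0.25% DNFB, a hapten that provokes contact dermatitis, in acetone and olive oil 3 times a week for 22 days. There was no untreated group, so the comparison is between genotypes under treatment. The labels name no age, sex or further allele, and do not describe how the IL-33 KO was made.

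Collagen chains assemble in threes into a triple-helical protein, so chains of one protein have to be made together. Types I, III and V form the banded fibrils of the dermis, and FACIT collagens sit on the surface of those fibrils. Type IV forms the sheet of the basement membrane, type XVII spans the membrane of basal keratinocytes at hemidesmosomes, and type VII anchors that basement membrane to the dermis below.

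Libraries held 20459574 to 24359612 counts. The targeted gene matched the labels, with 21, 22 and 11 Il33 counts in IL-33 KO 1 to 3 and 3906, 3086 and 2817 in WT 1 to 3. Collagens took 1.85%, 1.78% and 1.59% of all counts in IL-33 KO 1 to 3 and 1.52%, 1.76% and 2.83% in WT 1 to 3, so WT 3 stood above the other 5 libraries. Although the labelled region is epithelial, fibroblast markers other than collagens summed to 922 to 1049 FPKM (the deposited values, scaled by gene length and total counts) in IL-33 KO libraries and 952 to 1558 FPKM in WT libraries, the highest being WT 3. Basal keratinocyte markers summed to 12373 to 16733 and 14399 to 20949 FPKM. All 11 hair follicle markers had higher estimates in IL-33 KO, without overlap (7.46% of all genes lay above WT in this way) and without passing the test, at 3568 to 8002 against 939 to 2018 FPKM. Skeletal muscle markers summed to 76.2, 8.34 and 140 FPKM in IL-33 KO 1 to 3 against 6.68 to 6.91 FPKM in WT, so they were high in 2 of 3 IL-33 KO libraries, and none passed the test. In bulk RNA, fewer cells of a type and less RNA per cell cannot be told apart.

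The 6 type IV chain genes lie as 3 head-to-head pairs, and the chains of each pair are compared below. Sequence is printed for the run between Col4a4 and Col4a3 and for the bases before Col4a6. On chromosome 8 the deposited intervals of Col4a1 (minus strand) and Col4a2 (plus strand) overlap by 22 bases at their starts. On chromosome 1 the starts of Col4a4 (minus strand) and Col4a3 (plus strand) are separated by the 71 bases printed first, chr1:82586850-82586920 on the plus strand. On chromosome X the starts of Col4a6 (minus strand) and Col4a5 (plus strand) lie 1308 bases apart, and the second sequence holds the 250 bases before the Col4a6 start, chrX:141474077-141474326, read on the minus strand. Both come from the RefSeq promoter table for build GRCm38.p6, in which 35 of the 44 collagen genes had an entry.
Col4a4 and Col4a3: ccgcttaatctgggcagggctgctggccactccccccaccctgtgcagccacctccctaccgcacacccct
Col4a6: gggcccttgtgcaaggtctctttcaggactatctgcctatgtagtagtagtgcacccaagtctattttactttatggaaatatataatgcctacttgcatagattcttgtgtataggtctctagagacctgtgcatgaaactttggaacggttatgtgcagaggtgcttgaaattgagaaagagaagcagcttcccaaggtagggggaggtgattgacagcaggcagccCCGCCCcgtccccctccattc
Capitals mark CCGCCC, the reverse complement of GGGCGG. The motifs searched on both strands were the GC box (GGGCGG), the CAAT box (CCAAT) and the TATA box (TATAAA). The run between Col4a4 and Col4a3 held none of them. The 22 bases shared by Col4a1 and Col4a2, which are not printed, held 1 GGGCGG. In the 250 bases before the start, GGGCGG occurred in 22 of 38 collagen promoter entries (57.9%) and in 32.7% of all 32851 promoter entries, whereas CCAAT occurred in 34.2% of collagen entries against 33.8%, and TATAAA in 13.2% against 12.4%. These matches describe the letters only.

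None of the 39 collagens with enough counts to test differed between genotypes at an adjusted p under 0.05 by the edgeR quasi-likelihood test, where 3 of 15720 genes (0.0191%) did. DESeq2 also called 0 collagens, against 206 of 15719 genes (1.31%). At an unadjusted p under 0.05, edgeR picked out 3 collagens, Col26a1 and Col6a6 with higher and Col12a1 with lower values in IL-33 KO, a share of 7.69% against 9.02% of all genes (4.87% higher and 4.15% lower), and DESeq2 picked out 4. The smallest adjusted p of a collagen was 0.389 by edgeR and 0.187 by DESeq2. The libraries of the genotypes did not overlap for 6 collagens (15.4%), against 13.9% of all genes (7.46% above and 6.47% below): Col26a1, Col6a6 and Col6a4 lay above WT and Col12a1, Col7a1 and Col5a2 below it. Both shares were close to the background. Both include Col26a1, which passed the low-count filter only through its IL-33 KO libraries. For 26 of the 39 tested collagens the 95% interval of the log2 fold change lay between -1 and 1.

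Fold changes of the collagens were centred near 0, with 17 higher and 22 lower in IL-33 KO and a median log2 fold change of -0.02, beside -0.01 over all 15720 genes, of which 52.0% were lower. That balance follows the scaling, since with total counts 22 collagens were higher and 17 lower. All genes moved as well, with 9546 of 15720 higher and a median of 0.07. Values with total counts below stand beside that median. Median log2 fold changes were -0.16 for fibrillar (3 of 10 higher), 0.32 for basement membrane (6 of 6 higher), -0.23 for FACIT (1 of 6 higher), -0.20 for transmembrane (0 of 4 higher) and -0.10 for beaded filament chains (2 of 6 higher). The single anchoring fibril chain stood at -0.38. With total counts 5 of 10 fibrillar, 6 of 6 basement membrane, 2 of 6 FACIT and 1 of 4 transmembrane chains were higher. Among the 26 collagens with a mean FPKM of at least 1, 9 were higher and 17 lower, with a median of -0.13, and among the 13 tested chains below that level 8 were higher and 5 lower, with a median of 0.32.

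**Figure D1:**
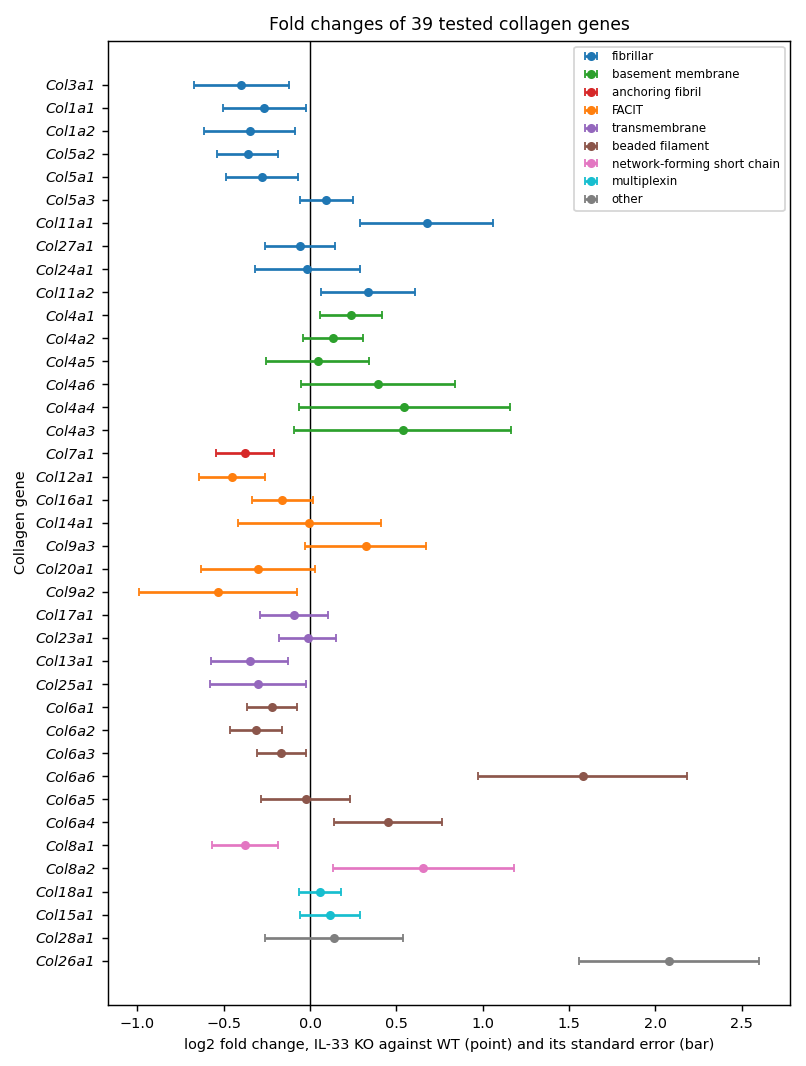
Log2 fold change of IL-33 KO against WT (horizontal axis) for the 39 tested collagen genes, grouped and coloured by class; points are edgeR estimates and bars 1 standard error either side. Most points lie between -0.5 and 0.7, and Col6a6 at 1.58 and Col26a1 at 2.08 are the exceptions on the right.

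Fibrillar collagens made up 75.7% to 83.3% of collagen FPKM in the 6 libraries, and Col3a1, Col1a1 and Col1a2 alone made up 71.6% to 79.6%. Mean FPKM over all libraries was 979 for Col3a1, the chain of type III collagen, 735 for Col1a1 and 713 for Col1a2, the chains of type I, and next among fibrillar chains 60.0 for Col5a2 and 46.5 for Col5a1, which make up type V, the collagen that starts fibrils and limits their width. Col11a1, of the related type XI, had a mean of 2.64 FPKM.

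Col1a1 (chr11:94936224-94953042, plus strand) had 3864, 4128 and 3844 CPM (TMM-scaled counts per 1000000 counts) in IL-33 KO 1 to 3 and 3520, 4455 and 6244 CPM in WT 1 to 3. Col3a1 (chr1:45311538-45349706, plus strand) had 4969, 4991 and 4062 CPM against 4668, 5151 and 8651 CPM. The genotypes overlapped for both chains and WT 3 was the highest library. The log2 fold change was -0.26 ± 0.24 (SE, n = 3 and 3; 95% interval -0.82 to 0.29; edgeR adjusted p = 0.743) for Col1a1. For Col1a2 it was -0.35 ± 0.26 (95% interval -0.95 to 0.25; edgeR adjusted p = 0.697). For Col3a1 it was -0.40 ± 0.27 (95% interval -1.03 to 0.23; edgeR adjusted p = 0.676). Without WT 3 the 3 values were -0.02, -0.04 and -0.07.

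Col5a2, which lies beside Col3a1 on chromosome 1 on the other strand and was chosen after its values were seen, had 383, 348 and 310 CPM in IL-33 KO against 386, 402 and 550 CPM in WT. The lowest WT library lay just above the highest IL-33 KO library. Its log2 fold change was -0.36 ± 0.18 (edgeR adjusted p = 0.586). Col5a1, also chosen after its values were seen, was level over 5 libraries, at 348, 352 and 355 CPM across IL-33 KO and 354 and 351 CPM in WT 1 and WT 2, with 575 CPM in WT 3. Col11a1, chosen in the same way, ran the other way, with 34.6, 20.8 and 17.9 CPM against 10.8, 10.1 and 24.9 CPM and a log2 fold change of 0.67 ± 0.39 (edgeR adjusted p = 0.623).

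The sign of the fibrillar median rested on WT 3. That library was the highest library for 7 of 10 fibrillar chains and for 19 of 39 collagens (48.7%), against 15.9% of all genes. Summed fibrillar FPKM was 2478, 2389 and 2061 in IL-33 KO 1 to 3 and 1992, 2343 and 4061 in WT 1 to 3, and without WT 3 the class median turned from -0.16 to 0.07. Fibroblast markers were highest in the same library. Summed fibrillar FPKM divided by summed fibroblast marker FPKM was 2.36, 2.49 and 2.24 in IL-33 KO and 2.09, 2.17 and 2.61 in WT, a mean of 2.36 ± 0.13 against 2.29 ± 0.28 (SD, n = 3 each), and the genotypes overlapped. The part of fibroblast markers in the fibrillar values was not tested.

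**Figure D2:**
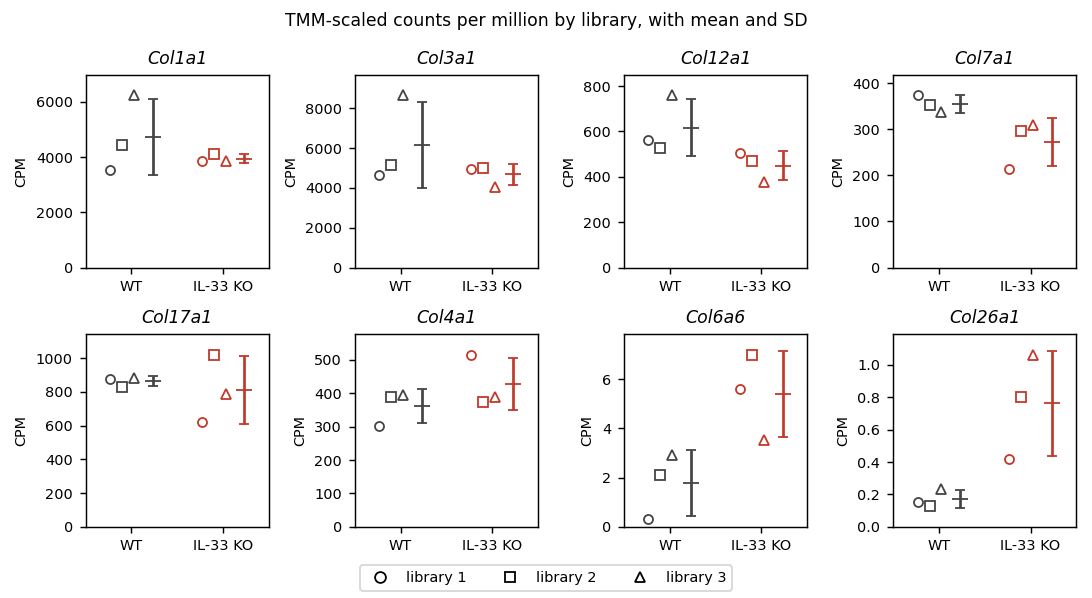
TMM-scaled CPM (vertical axes, from 0) of 8 collagen genes in each library of WT and IL-33 KO; circles, squares and triangles are libraries 1, 2 and 3, and bars give mean and SD. WT 3 stands highest for Col1a1, Col3a1 and Col12a1, IL-33 KO 1 lowest for Col7a1 and Col17a1, and the genotypes are apart for Col12a1, Col7a1, Col6a6 and Col26a1.

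Type IV chains of the basement membrane were all higher in IL-33 KO by their estimates and none passed the test. Col4a1 and Col4a2, whose chains make up the form found in nearly every basement membrane, had mean FPKM of 60.0 and 39.6, against 1.62 for Col4a5 and 1.04 or less for Col4a6, Col4a4 and Col4a3. Col4a1 had 516, 373 and 390 CPM across IL-33 KO and 303, 390 and 394 CPM in WT, and a log2 fold change of 0.24 ± 0.18 (95% interval -0.18 to 0.65; edgeR adjusted p = 0.702). Col4a2 had 326, 227 and 245 CPM against 213, 269 and 247 CPM, and 0.13 ± 0.17 (edgeR adjusted p = 0.824). IL-33 KO 1 was the highest and WT 1 the lowest library for both, and the remaining 4 lay close together.

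Minor type IV chains varied more than the major ones. Col4a6, chosen after its values were seen, had 7.76, 10.8 and 4.69 CPM across IL-33 KO and 2.57, 6.46 and 8.60 CPM in WT, with a log2 fold change of 0.39 ± 0.44 (edgeR adjusted p = 0.792). Col4a5 had 12.0, 13.2 and 6.87 CPM against 7.21, 10.5 and 13.3 CPM, and a value of 0.04 ± 0.30 (edgeR adjusted p = 0.971). WT 1 was the lowest library for 5 of 6 type IV chains, and for 15 of 39 collagens (38.5%) against 20.1% of all genes. Without WT 1 the class median dropped from 0.32 to 0.06, with 5 of 6 chains higher, and without IL-33 KO 1 it was 0.23, with 4 of 6 higher. Adipocyte markers were also lowest in WT 1, at 136 FPKM against 319 to 790 FPKM in the other 5 libraries. Pericyte and smooth muscle markers summed to 212, 114 and 155 FPKM in IL-33 KO 1 to 3 and 86.5, 147 and 128 FPKM in WT 1 to 3. Their highest library was IL-33 KO 1 and their lowest WT 1. Endothelial markers were level at 59.9 to 73.8 FPKM in IL-33 KO and 62.8 to 73.4 in WT. The part of any of these marker lists in the type IV values was not tested.

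The 4 pairs of abundant chains of types I, IV, V and VI varied less in their ratio than in their levels. The ratio of Col1a1 to Col1a2 in FPKM was 1.02, 1.02 and 1.18 in IL-33 KO and 1.01, 1.08 and 0.957 in WT, a 1.23-fold range, although each chain ranged 1.99-fold and 2.10-fold over the same libraries. The ratio of Col4a1 to Col4a2 was 1.54, 1.60 and 1.55 in IL-33 KO and 1.39, 1.42 and 1.55 in WT, a 1.16-fold range beside 1.97-fold and 1.76-fold for the chains. Col6a1 to Col6a2 ranged 1.14-fold and Col5a1 to Col5a2 1.31-fold, and the genotypes overlapped in all 4 ratios. Between chains of different types, Col5a1 to Col1a1 ranged 1.28-fold and Col3a1 to Col1a1 1.31-fold, close to the type V pair. Other such ratios ranged from 1.47-fold for Col7a1 to Col17a1 to 3.46-fold for Col11a1 to Col5a1. A narrow ratio was thus not particular to chains of the same type. Pairs of less abundant chains of the same type varied more. Col4a6 to Col4a5 ranged 2.30-fold, beside 4.52-fold and 2.08-fold for the chains, and Col4a3 to Col4a4, both with few counts, ranged 2.76-fold. Col8a1 to Col8a2, a pair added after its values were seen, ranged 7.96-fold, from 0.852 to 6.78, and overlapped between genotypes.

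In 2 of the 16 ratios computed, chosen with earlier results known and not tested, the libraries of the genotypes did not overlap. Among single genes 13.9% did not overlap between genotypes in CPM, which is an unlike measure. No such share was computed for FPKM ratios between genes. Col11a1 to Col5a1 was 0.109, 0.0646 and 0.0553 in IL-33 KO against 0.0336, 0.0315 and 0.0474 in WT. Col4a6 to Col4a5, the pair beside the printed sequence on chromosome X, was 0.637, 0.807 and 0.672 against 0.351, 0.606 and 0.634. In the Col4a6 ratio IL-33 KO 1 lay just above WT 3.

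**Figure D3:**
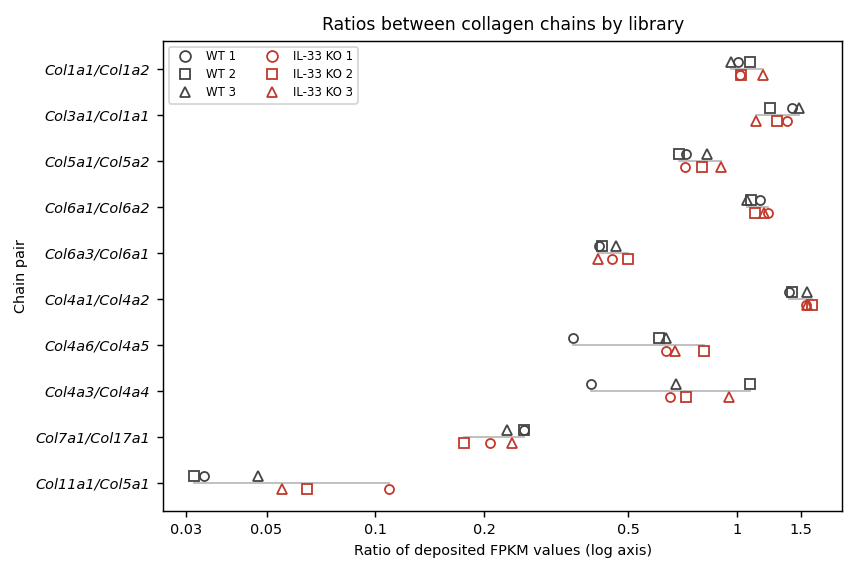
Ratio of deposited FPKM values between collagen chains (horizontal log axis) for 10 pairs in each library; grey symbols are WT, red symbols IL-33 KO, shapes give the library number and grey lines span all 6 libraries. The pairs Col1a1/Col1a2, Col6a1/Col6a2 and Col4a1/Col4a2 span 1.14-fold to 1.23-fold, and Col11a1/Col5a1 spans 3.46-fold with IL-33 KO above WT.

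At the junction of epidermis and dermis, Col7a1, the anchoring fibril collagen, lay below every WT library in all 3 IL-33 KO libraries and did not pass the test. Col7a1 (chr9:108953586-108984875, plus strand) had 214, 296 and 310 CPM across IL-33 KO and 374, 354 and 337 CPM in WT. The log2 fold change was -0.38 ± 0.17 (unadjusted p = 0.0543; edgeR adjusted p = 0.560), and -0.23 without IL-33 KO 1, a move of over 1.5 times. Col17a1 (chr19:47646344-47692094, minus strand), the hemidesmosomal collagen, was the fourth most abundant collagen transcript, with 621, 1021 and 788 CPM in IL-33 KO against 877, 830 and 883 CPM in WT. WT values for Col17a1 lay within the spread of the IL-33 KO values, and the log2 fold change was -0.09 ± 0.20 (95% interval -0.54 to 0.36; edgeR adjusted p = 0.896). The ratio of Col7a1 to Col17a1 overlapped between genotypes, at 0.208, 0.175 and 0.238 against 0.258, 0.258 and 0.231. IL-33 KO 1 was the lowest library for both genes and also for the summed basal keratinocyte markers, at 12373 FPKM, and the part of those markers was not tested.

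Col13a1 and Col23a1 are further transmembrane collagens. Col13a1, found at cell adhesions, had 13.9, 12.5 and 18.8 CPM across IL-33 KO and 24.5, 17.9 and 15.2 CPM in WT, with a log2 fold change of -0.35 ± 0.23 (edgeR adjusted p = 0.657). Col23a1 had 34.6, 35.5 and 42.0 CPM against 40.3, 29.6 and 43.3 CPM, and -0.01 ± 0.17 (edgeR adjusted p = 0.985). The genotypes overlapped for both.

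Among the FACIT collagens, which bind to the surface of type I fibrils, Col12a1 was lower in IL-33 KO without overlap but did not pass the adjusted threshold. Col12a1 (chr9:79598991-79718831, minus strand) had 503, 468 and 378 CPM across IL-33 KO and 560, 527 and 760 CPM in WT, a mean of 450 ± 64.2 against 615 ± 126 CPM (SD, n = 3 each). Its log2 fold change was -0.45 ± 0.19 (95% interval -0.89 to -0.01; unadjusted p = 0.0445; edgeR adjusted p = 0.547). Without WT 3 it was -0.28, with an unadjusted p of 0.138. Relative to Col1a1 in FPKM, Col12a1 stood at 0.0670, 0.0584 and 0.0507 in IL-33 KO and 0.0820, 0.0609 and 0.0627 in WT, and the genotypes overlapped.

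Col14a1, another FACIT chain, had 64.0, 47.2 and 41.3 CPM across IL-33 KO and 25.9, 37.6 and 89.2 CPM in WT. WT 1 and WT 3 bracketed all IL-33 KO libraries, and the log2 fold change was -0.0041 ± 0.41 (edgeR adjusted p = 0.998). Without WT 3 it was 0.68 (unadjusted p = 0.021; edgeR adjusted p = 0.207). With WT 3 kept, its sign also turned under other scalings, and 12 of 18 alternatives gave a positive value. Col16a1 had 192, 174 and 152 CPM against 151, 198 and 230 CPM, and -0.16 ± 0.18 (edgeR adjusted p = 0.790).

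Type VI collagen forms beaded filaments around cells and basement membranes, and its 3 main chains were slightly lower in IL-33 KO by their estimates and did not pass the test. Col6a1 had 379, 331 and 416 CPM across IL-33 KO and 395, 451 and 464 CPM in WT, with a log2 fold change of -0.22 ± 0.15 (edgeR adjusted p = 0.668). Col6a2 had 374, 353 and 422 CPM against 410, 495 and 522 CPM, and -0.31 ± 0.15 (edgeR adjusted p = 0.579). Col6a3 had 421, 407 and 423 CPM against 405, 469 and 530 CPM, and -0.17 ± 0.14 (edgeR adjusted p = 0.732). All 3 overlapped between genotypes, and the 95% intervals of all 3 lay between -0.66 and 0.16.

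Col6a6, a chain that can take the place of Col6a3, lay above every WT library in all 3 IL-33 KO libraries and did not pass the test. It had 5.61, 7.00 and 3.53 CPM across IL-33 KO and 0.302, 2.10 and 2.92 CPM in WT, from 133, 166 and 73 counts against 6, 48 and 74 counts. WT 1 was far below the rest. The log2 fold change was 1.58 ± 0.61 (95% interval 0.18 to 2.98; unadjusted p = 0.0313; edgeR adjusted p = 0.527), and it was 1.10 without WT 1 and 2.13 without WT 3.

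Col6a4, Col6a5 and Col6a6 lie side by side on the minus strand of chromosome 9, at chr9:105989454-106096783, chr9:105856078-105960643 and chr9:105687809-105828160. The first 2 were chosen after their values were seen. Col6a5 was level, at 2.49, 1.73 and 1.98 CPM across IL-33 KO and 2.12, 2.23 and 1.97 CPM in WT. Col6a4 had 1.01, 1.14 and 0.871 CPM against 0.756, 0.786 and 0.670 CPM, without overlap, and a log2 fold change of 0.45 ± 0.31 (edgeR adjusted p = 0.678). Neighbouring genes of one family thus had estimates from -0.03 to 1.58.

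Of the short-chain network collagens, which occur in vessel walls and in Descemet's membrane of the cornea, Col8a1 had 9.99, 8.56 and 9.43 CPM across IL-33 KO and 9.67, 11.8 and 14.8 CPM in WT, with a log2 fold change of -0.38 ± 0.19 (edgeR adjusted p = 0.596). Its partner Col8a2 had 5.40, 8.52 and 3.39 CPM against 1.21, 4.02 and 5.68 CPM, and 0.66 ± 0.53 (edgeR adjusted p = 0.715). Both overlapped between genotypes, and Col8a2 was lowest in WT 1.

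The multiplexins, basement membrane zone collagens that carry heparan or chondroitin sulfate chains, overlapped between genotypes. Col18a1, the source of the fragment endostatin, had 281, 317 and 300 CPM across IL-33 KO and 278, 305 and 281 CPM in WT, and a log2 fold change of 0.06 ± 0.12 (95% interval -0.23 to 0.34; edgeR adjusted p = 0.899). Col15a1 had 113, 89.7 and 85.9 CPM against 70.3, 100 and 95.6 CPM, and 0.12 ± 0.17 (edgeR adjusted p = 0.848). Reads of Col18a1 may include some of Slc19a1, which overlaps it by 8825 bases on the opposite strand and had 240 to 321 counts, as the sources used here do not say how strand was handled.

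Col26a1 (chr5:136741759-136883209, minus strand) had the largest fold change of the 39 tested collagens and one of the lowest levels, with a mean of 0.170 FPKM. It had 0.422, 0.801 and 1.06 CPM across IL-33 KO and 0.151, 0.131 and 0.237 CPM in WT, from 10, 19 and 22 counts against 3, 3 and 6 counts. Each IL-33 KO library lay above every WT library. With so few WT counts, Col26a1 passed the low-count filter only through its IL-33 KO libraries. A chain equally low in both genotypes would not have been tested, so its rank, p and lack of overlap are not independent of that filter. The log2 fold change was 2.08 ± 0.52 (95% interval 0.88 to 3.28; unadjusted p = 0.00406; edgeR adjusted p = 0.389) and it ranged from 1.77 to 2.38 with 1 library left out at a time. Hair follicle markers also lay higher in all 3 IL-33 KO libraries, and their part in the Col26a1 and Col6a6 values was not tested. Col28a1, in the same residual class, had 5.48, 4.18 and 3.14 CPM against 3.43, 2.05 and 6.11 CPM, with overlap, and 0.14 ± 0.40 (edgeR adjusted p = 0.924).

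**Figure D4:**
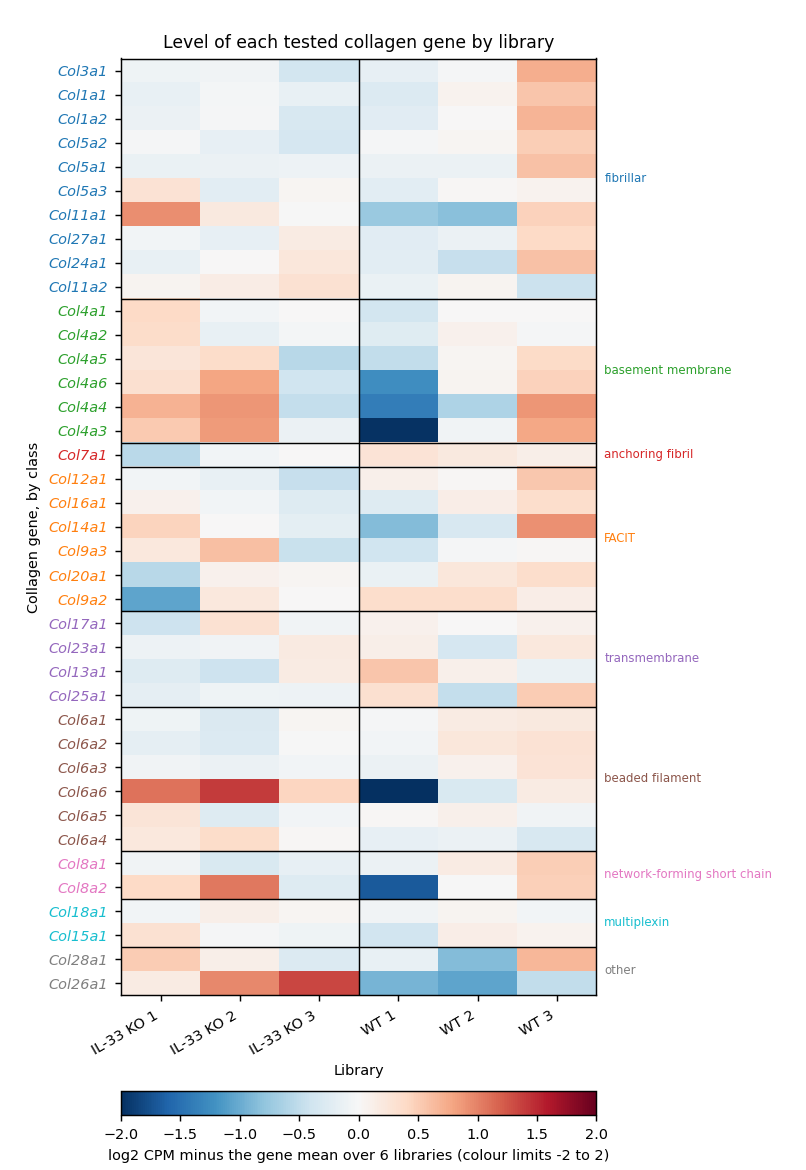
Log2 level of each of the 39 tested collagen genes in each library relative to the mean of that gene over all 6 libraries, ordered by class; colours saturate at 2 above and below the mean. WT 3 is above the mean for most fibrillar chains, WT 1 is lowest for 5 of 6 basement membrane chains, and Col6a6 and Col26a1 are higher in IL-33 KO than in WT.

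A further 5 collagens had too few counts to test. Col2a1, the cartilage fibrillar chain, had 3, 5 and 8 counts across IL-33 KO and 1, 1 and 2 counts in WT. Col10a1, of hypertrophic cartilage, had 4, 13 and 1 against 0, 4 and 0 counts. These may include reads of Nt5dc1, which overlaps it by 7105 bases on the opposite strand and had 436 to 524 counts. Col22a1 had 2, 0 and 0 against 4, 3 and 4 counts. Col9a1 had 4 counts in IL-33 KO 2 and none elsewhere. Col19a1 had 0 counts in every library, which allows up to 3 counts, or 0.123 to 0.147 CPM by library, for counting error only. The remaining tested chains not named singly (Col5a3, Col11a2, Col24a1, Col27a1, Col4a3, Col4a4, Col9a2, Col9a3, Col20a1 and Col25a1) had log2 fold changes from -0.53 to 0.55, and all overlapped between genotypes. Of these, Col20a1 had 19 to 40 counts and shares 741 bases on the same strand with 9230112E08Rik, which had 88 to 126 counts.

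Genes that modify, fold and export collagen were lower in IL-33 KO by their estimates in 18 of 20 cases, with a median log2 fold change of -0.23 beside -0.01 over all genes, and none passed the edgeR threshold. At an unadjusted p under 0.05 there were 7 of 20, all with lower estimates, beside 4.15% of all genes at that p in the lower direction. P4ha1 was among those 7 and overlapped between genotypes. The libraries lay below WT without overlap for 7 of 20, beside 6.47% of all genes, Plod3 being the one whose unadjusted p was not under 0.05 (both genes chosen after their values were seen). P4ha2, a subunit of the prolyl hydroxylase that stabilises the helix, had 22.3, 25.2 and 29.9 CPM across IL-33 KO and 35.2, 39.9 and 35.8 CPM in WT. Its log2 fold change was -0.52 ± 0.14 (edgeR adjusted p = 0.408). Leprel4 and Leprel2, older symbols of P3h4 and P3h3 of the prolyl 3-hydroxylase family, stood at -0.49 ± 0.14 and -0.42 ± 0.15 (edgeR adjusted p = 0.434 and 0.504). With total counts 16 of 20 were lower and the median was -0.16, and without WT 3 it was 16 of 20 again, with a median of -0.16.

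Proteoglycans and glycoproteins of the fibril surface were lower in IL-33 KO by their estimates in 11 of 12 cases, with a median of -0.37, beside 52.0% of all genes lower and a median of -0.01. At an unadjusted p under 0.05 there were 5 of 12, all lower, beside 4.15% of all genes at that p in the lower direction. Thbs2, a matricellular protein, had 246, 281 and 217 CPM across IL-33 KO and 377, 337 and 662 CPM in WT, and -0.89 ± 0.26 (edgeR adjusted p = 0.440). Lum (lumican) and Dcn (decorin), small proteoglycans that regulate fibril width and are also among the fibroblast markers, stood at -0.66 ± 0.24 and -0.47 ± 0.18 (edgeR adjusted p = 0.509 and 0.521). WT 3 was again high, and without it 8 of 12 were lower, with a median of -0.16.

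The other collagen-related lists were small and mixed. Of 7 tested genes for cleavage of procollagen ends 6 were lower, with a median of -0.21, including Bmp1 at -0.24 and Pcolce at -0.32, while Adamts3 stood at 0.76 (edgeR adjusted p = 0.610, 0.602 and 0.661). With total counts 4 of 7 were lower, and 3 of 7 when WT 3 was left out. Of 5 lysyl oxidases, which crosslink collagen, 4 were lower, with a median of -0.14, and without WT 3 only 1 was. Loxl1 had -0.33 (edgeR adjusted p = 0.623), Loxl4 -0.33 (0.751) and Loxl2 -0.14 (0.797).

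Of 9 tested collagen receptors 4 were higher and 5 lower, with a median of -0.05 that turned to 0.03 with total counts. Itga11, the integrin chain by which fibroblasts bind type I collagen, had 24.0, 20.5 and 19.1 CPM across IL-33 KO and 26.1, 28.9 and 43.4 CPM in WT, without overlap. Its log2 fold change was -0.63 ± 0.21 (edgeR adjusted p = 0.475). Mrc2, an endocytic receptor that clears collagen, and Ddr2, a receptor kinase for fibrillar collagen, stood at -0.26 and 0.17 (edgeR adjusted p = 0.678 and 0.812). Gp6, the platelet collagen receptor, had 0 counts in every library.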

How the data were processed

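Counts per gene and FPKM per gene were deposited by the authors for 6 libraries (3 IL-33 KO, 3 WT). STAR, RSEM and mm10 are named in the submitters' processing notes; versions, annotation, and the treatment of strand and of multiply mapped reads are not given in the sources used here. The deposited FPKM values equal the deposited count divided by gene length and total counts (largest relative difference 2.782e-07). Genotype and number came from sample titles. The labels do not state that libraries came from separate animals, so p-values measure the spread between libraries.

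Whole-number counts were tested with edgeR 4.0.16 in R 4.3.3 (filterByExpr, TMM, quasi-likelihood F test, two-sided, Benjamini-Hochberg over 15720 genes, threshold 0.05; biological coefficient of variation 21.3%). Standard errors and 95% intervals came from the F statistic. CPM uses TMM-scaled totals. DESeq2 1.42.0, limma 3.58.1, other scalings and filters, log2(FPKM + 1) and log2(FPKM + 0.1), a replicate block and leaving out each library were alternatives. The fit was tested on simulated data. The range of depths over the libraries is given above. The floor given for Col19a1 covers counting error only, whereas the 95% intervals also include the spread between libraries.

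Collagens named were those with an unadjusted p under 0.05 and, in each class, the 3 tested chains of highest mean FPKM; of other lists, the 3 with the smallest p. Members, classes, lists and ratios were chosen with earlier results of these data known. Promoter sequences and motif shares came from RefSeq GRCm38.p6. All 44 deposited collagen positions overlap GENCODE positions for the same build.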

Additional observations from a re-analysis of the deposited data

How the results depend on the processing

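No collagen passed the threshold of 0.05 in any of the 18 alternatives, and the number at an unadjusted p under 0.05 was 1 to 5 with 1 library left out. Across all genes the number past the threshold moved from 3 to 5 (upper quartile scaling), 5 (total counts), 33 (no filter on low counts), 5 (CPM of at least 1 in 3 libraries), 206 (DESeq2), 11 (limma-voom), 15 (log2(FPKM + 1), filtered), 11 (log2(FPKM + 0.1), filtered) and 22 (log2(FPKM + 1), no filter), and ranged from 2 to 24 with 1 library left out; the cause was not tested. The median of the class of other chains, Col26a1 and Col28a1, was 1.11, with 0.14 under the CPM filter and 0.20 with log2(FPKM + 1) and no filter, the first because Col26a1 was no longer tested, and 0.88 to 1.51 with 1 library left out; the filtered FPKM fits gave no value for it. Medians of the fibrillar class ranged from -0.29 to 0.07 with 1 library left out, and the median was 0.02 with log2(FPKM + 1) and no filter. Medians of the basement membrane class ranged from 0.06 to 0.53.

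Of 38 genes named by the rule given above, 10 changed sign somewhere. Genes chosen after their values were seen were not counted here. Col14a1 was 0.0022 with DESeq2's size factors in edgeR, 0.0074 with upper quartile scaling, 0.045 with total counts, 0.0033 with DESeq2, 0.16 with limma-voom, 0.20, 0.25 and 0.20 on the 3 FPKM scales, and -0.32 to 0.68 with 1 library left out. Col23a1 was 0.0070 with upper quartile scaling, 0.059 with total counts, 0.069, 0.081 and 0.069 on the FPKM scales, and -0.16 to 0.10 with 1 library left out. With 1 library left out, Col4a2 ranged from -0.042 to 0.23, Col4a5 from -0.16 to 0.28, Col17a1 from -0.29 to 0.067, Col15a1 from -0.025 to 0.21, Col28a1 from -0.16 to 0.64, Ddr2 from -0.033 to 0.39, Loxl2 from -0.25 to 0.057 and Loxl4 from -0.60 to 0.026. The cause was not tested. Chains under about 1 CPM, such as Col26a1, rest on 3 to 22 counts a library, which limits their precision. Col26a1 also passed the low-count filter only through its IL-33 KO libraries, and the median of the class of other chains shares that limit.

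Same-numbered libraries of the genotypes did not deviate together (correlations -0.264, -0.117 and -0.378), and 0 libraries correlated best with their own number, so the numbers were not taken as pairs. With the replicate block 0 collagens and 2 genes passed, Col14a1 was 0.18 and Col23a1 7.7e-05.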
